A study of Mus musculus with 18 samples.

Results

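The comparison set 6 Male samples of dorsal spinal cord (the dorsal horn, DHSC), taken on the side of the injection, against 6 F1/Proestrus samples, out of 18 samples in the series, and kept to the genes on chromosomes 1 to 19, the autosomes. Of the 55573 genes in the table of counts 51201 lie on these chromosomes, and 23436 of them passed a filter on low counts and were tested. All mice were C57BL/6J, adult (8 to 12 weeks), and received 2% formalin in a hindpaw 2 h before the tissue was taken from lumbar segments 3 to 5. F1/Proestrus samples came from females with a short interphase, the quiet time between the phases of the formalin response, whose vaginal smear showed proestrus. F2/Metestrus females, in metestrus and with a long interphase, are given only beside them. No uninjected mice were sequenced, males carry no cycle stage, and stage and behaviour define the female group together, so that effects of sex, stage and behavioural type cannot be told apart here. The question was which autosomal transcripts separate males from proestrus females once genes on the sex chromosomes are set aside.

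The dorsal horn receives the input of nociceptors and passes it on through excitatory and inhibitory interneurons, many of which make neuropeptides. Enkephalins, cut from the precursor that *Penk* encodes, act on opioid receptors and dampen the transmission of pain. Microglia are the resident macrophages of the cord, whereas neutrophils are blood leukocytes that carry ready-made granule proteins and are scarce in healthy nervous tissue. The samples are pieces of whole tissue, in which fewer cells of a type and less RNA per cell cannot be told apart.

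The 12 libraries held 73590509 to 125724156 counted reads each. In the fewest-read sample 3 counts, taken as the smallest signal the depth can show, corresponded to 0.0408 CPM (counts scaled to a common library total), a floor for counting error only. Levels below are in CPM after TMM normalization, which was not applied to this floor. The sex check held for every library, with 2 to 11 counts of *Xist* in the males and at least 796 in a female. *Ddx3y* had at least 5400 counts in each male and at most 7 in a proestrus female. Defining transcripts of the tissue were present in each group, where markers of dorsal horn excitatory neurons summed to 370 to 393 CPM in males and 349 to 425 CPM in F1/Proestrus. One F1/Proestrus sample, replicate 5, stood apart: 12 of 12 markers of sensory ganglion neurons had the highest value of all 18 samples there. They summed to 703 CPM in that sample, against 4.56 to 7.62 CPM in the other 5 F1/Proestrus samples and 5.40 to 6.16 CPM in males. Called genes and list summaries are therefore given with and without F1/Proestrus 5.

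Males had more transcripts of *Penk*, of the non-coding gene *A830012C17Rik* that overlaps it, of *Angptl4* and of *Lcn2* than proestrus females, and these 4 genes were the calls among the 23436 autosomal genes tested (0.0171%; edgeR's quasi-likelihood test with Benjamini-Hochberg adjustment over all 24287 genes tested, FDR of 5%). In the opposite direction 0 genes (0%) were called, the smallest adjusted p being 0.0625. At an unadjusted p under 0.05 the test gave 1202 autosomal genes higher in males (5.13%) and 1221 lower (5.21%). Of the same 23436 genes DESeq2 called 82 higher and 52 lower, and limma voom 18 higher and 11 lower. Without F1/Proestrus 5, DESeq2 called 126 higher and 51 lower of 23658. The DESeq2 and limma voom calls given for each list below stand beside these counts. The adjustment over all genes drew on the 13 called genes outside the autosomes, and adjusted over autosomal genes alone the smallest p was 0.0804, so that 0 autosomal genes passed in either direction. Without F1/Proestrus 5, 6 of 23658 genes rose in males (0.0254%) and 1 fell (0.00423%), while 1063 (4.49%) and 997 (4.21%) had an unadjusted p under 0.05. *Penk*, *A830012C17Rik* and *Angptl4* were called in both fits, *Lcn2* only in the fit of 12 samples, and *Mpo*, *Hspb2*, *Sbspon* and *Gm19409* only in the fit of 11. *Hspb2* and *Gm19409* lay outside the rule for naming genes and were chosen after their values were seen.

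**Figure D1:**
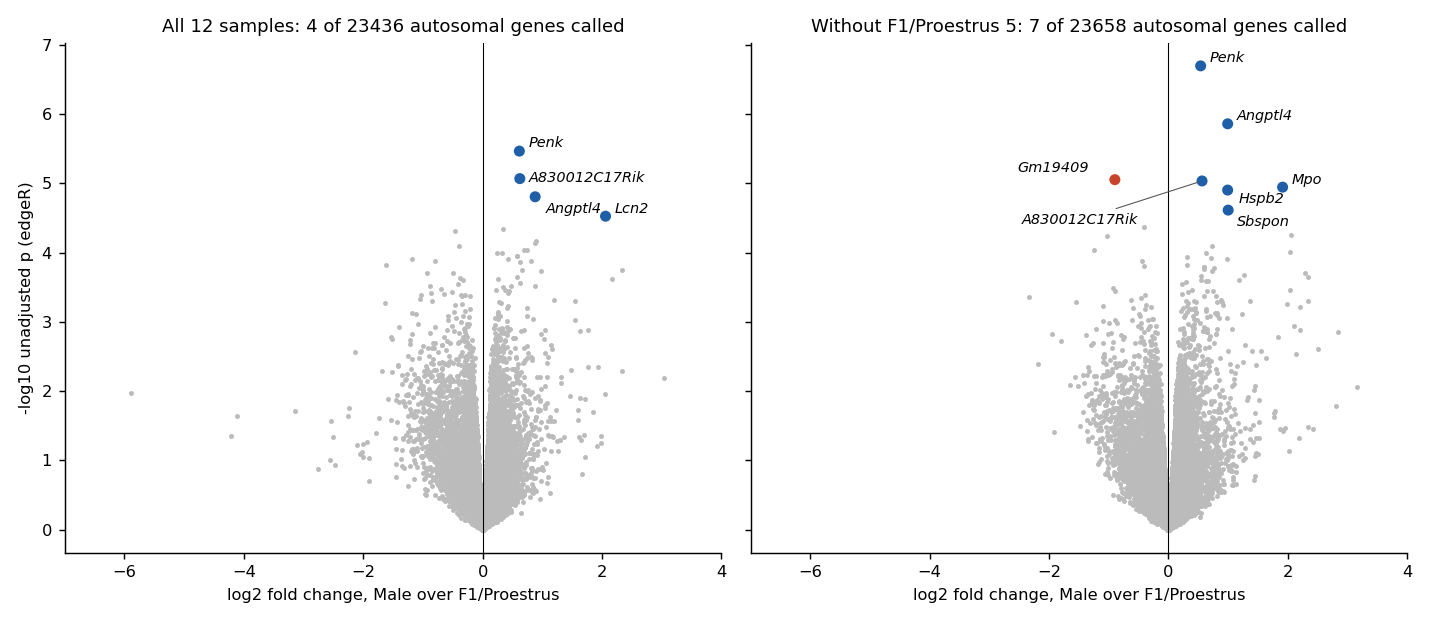
Log2 fold change of Male over F1/Proestrus (x) against -log10 of the unadjusted p of edgeR's test (y) for autosomal genes, each point a gene, with all 12 samples (left) and without F1/Proestrus 5 (right). Called genes are coloured, blue for higher and red for lower in males; 4 were called on the left and 7 on the right, and the points far to the left at strongly negative fold changes are seen only with all 12 samples.

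*Penk* is transcribed from the minus strand at chr4:4133531-4138819 (GRCm38, as are the other positions given here). Its level ran from 399.9 to 562 CPM in males, with a median of 471, and from 252 to 380.3 CPM in F1/Proestrus, with a median of 292. All 6 males lay above all 6 proestrus females, and F1/Proestrus 5 held the lowest value. The means were 468 ± 62.8 CPM (SD, n = 6) and 303 ± 48.0 CPM (SD, n = 6), and the fitted difference was 1.53-fold. The log2 fold change was 0.61 (standard error 0.084) with an adjusted p of 0.00641 in edgeR's test. In the fit without F1/Proestrus 5 it was 0.54 (0.057), adjusted p = 0.000506. Within replicates 1 to 3 the log2 fold change was 0.56 and within replicates 4 to 6 it was 0.68, and the gene was called in 12 of 12 fits that each left out 1 sample.

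*A830012C17Rik*, a processed transcript on the plus strand (chr4:4138321-4188703), overlaps the 5′ end of *Penk* by 499 bases. Whether the counting used the strand is not given in the sources used here, so that reads of the pair cannot be told apart with certainty, and its call is not separate from that of *Penk*. It had 21.8 to 29.2 CPM in males (median 25.6) and 13.9 to 19.9 CPM in F1/Proestrus (median 16.3), again with no overlap between the groups. The log2 fold change was 0.62 (standard error 0.092; adjusted p = 0.0149), and 0.56 without F1/Proestrus 5 (adjusted p = 0.0142).

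*Angptl4* (chr17:33773750-33781830, minus strand) encodes a secreted inhibitor of lipoprotein lipase that fasting and glucocorticoids induce. Males had 18.5 to 30.3 CPM (median 22.9) and F1/Proestrus 9.49 to 17.9 CPM (median 12.1). The groups did not overlap, but the highest proestrus value was that of F1/Proestrus 5, the other 5 reaching at most 12.8 CPM. The log2 fold change was 0.88 (standard error 0.14; adjusted p = 0.0238 in edgeR's test), a 1.84-fold difference. It was 0.99 (0.12; adjusted p = 0.00309) when F1/Proestrus 5 was left out. In the fits that left out 1 sample each, *Angptl4* was called in 4 of 12, with log2 fold changes of 0.80 to 0.99.

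*Lcn2* (chr2:32384633-32388252, minus strand) encodes lipocalin 2, a secreted protein that binds bacterial siderophores and is stored in neutrophil granules, and which glia and endothelium can also make. The 6 males had 5.31, 8.55, 9.35, 14.4, 17.7 and 2.61 CPM in the order of their replicate numbers. The F1/Proestrus samples had 1.94 to 2.45 CPM (median 2.29), so that 5 males lay well above the females and Male 6 just above the highest of them. The males had 9.65 ± 5.61 CPM (SD, n = 6) and F1/Proestrus 2.26 ± 0.172 CPM (SD, n = 6), and the fitted difference was 4.17-fold. The log2 fold change was 2.06 (standard error 0.34; adjusted p = 0.0427). Without F1/Proestrus 5, whose 2.35 CPM was within the range of the other females, it was 2.03 with an adjusted p of 0.0885, and the call was lost. *Lcn2* was called in 2 of the 12 fits that left out 1 sample each, with an adjusted p of up to 0.135. Within replicates 1 to 3 the log2 fold change was 1.72 and *Lcn2* was the only autosomal gene called, and within replicates 4 to 6 it was 2.41.

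Another 4 genes were called by edgeR's test without F1/Proestrus 5 but not with all 12 samples, a selection that favours genes for which this sample lay toward the males. DESeq2 and limma voom each called all 4 with the 12 samples. *Mpo* (chr11:87793581-87804413, plus strand), the peroxidase of neutrophil azurophilic granules, had 0.457 to 1.58 CPM in males (median 0.796). In F1/Proestrus 5 it had 0.588 CPM and in the other proestrus females 0.142 to 0.297 CPM. Without F1/Proestrus 5 the log2 fold change was 1.91 (standard error 0.29; adjusted p = 0.0164), whereas with it the value was 1.55 (0.35; adjusted p = 0.174). These levels rest on 41 to 194 counts per male and 14 to 67 per proestrus female. The antisense gene *Gm11505* overlaps *Mpo* by 5361 bases and had a log2 fold change of 1.10 (adjusted p = 0.438), and with strand use not given reads of the pair cannot be told apart with certainty.

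*Sbspon* (chr1:15853862-15892722, minus strand), which encodes a secreted matrix protein with a somatomedin B and a thrombospondin domain, had 12.7 to 27.9 CPM in males (median 17.6) and 7.39 to 13.6 CPM in F1/Proestrus (median 9.04). The top proestrus value belonged to F1/Proestrus 5, and the other 5 reached at most 9.15 CPM. Its log2 fold change was 1.0 (adjusted p = 0.0315) without that sample and 0.90 (adjusted p = 0.0796) with it. The same limit holds for *Sbspon* and *Gm37509*, an annotated gene of unknown status on the opposite strand that overlaps it by 2638 bases and had a log2 fold change of 0.88 (adjusted p = 0.147). *Hspb2* (chr9:50751078-50752354, minus strand) encodes a small heat shock protein and overlaps *Cryab* by 1030 bases. It had 2.93 to 5.61 CPM in males and 1.59 to 3.25 CPM in F1/Proestrus, with log2 fold changes of 0.99 (adjusted p = 0.0171) without F1/Proestrus 5 and 0.88 (adjusted p = 0.0796) with it. Since strand use is not given, its reads and those of *Cryab*, with a log2 fold change of 0.27 (adjusted p = 0.413), cannot be told apart with certainty.

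*Gm19409* was the gene that fell in males. It is annotated as a sense-intronic transcript (chr5:30815620-30818477, plus strand) within *Mapre3*, whose own log2 fold change was -0.012, and the antisense gene *Gm15461* overlaps it by 501 bases (log2 fold change -0.76, adjusted p = 0.429). Males had 1.51 to 2.42 CPM (median 1.96) and F1/Proestrus 2.03 to 4.36 CPM (median 3.67). Only F1/Proestrus 5, with the lowest proestrus value, fell within the range of the males. The log2 fold change was -0.90 (standard error 0.13; adjusted p = 0.0142) without F1/Proestrus 5 and -0.79 (adjusted p = 0.0943) with all samples. The coding genes with the smallest p among those lower in males, chosen after their values were seen, were *Cish*, a feedback inhibitor of cytokine signaling, at -0.47 (adjusted p = 0.0625), and *Lrp1b*, a receptor of the LDL receptor family, at -0.40 (adjusted p = 0.0855).

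**Figure D2:**
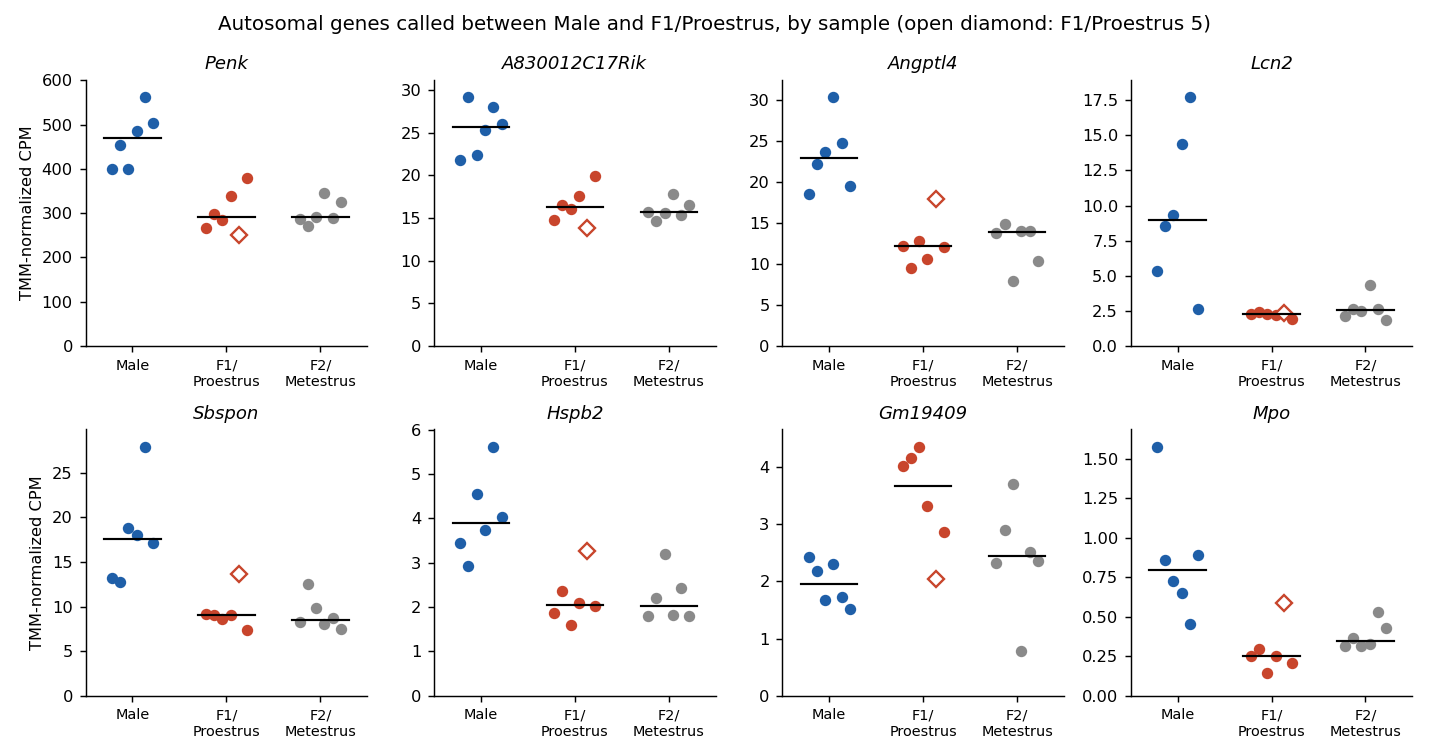
TMM-normalized CPM (y, from 0) of the 8 autosomal genes called with or without F1/Proestrus 5, one panel per gene, with 1 point per sample and a black line at the median of each group. For *Penk*, *A830012C17Rik*, *Angptl4* and *Lcn2* all 6 males lie above all F1/Proestrus samples; the open diamond, F1/Proestrus 5, lies nearest to the males for *Angptl4*, *Sbspon*, *Hspb2*, *Gm19409* and *Mpo*.

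The F2/Metestrus samples, which were compared with the same males, gave 29 autosomal genes higher in males (0.125%) and 17 lower (0.0733%) of 23193 tested. Because both comparisons share the males, their values are only set side by side. *Penk* had 270.3 to 345 CPM in F2/Metestrus and a log2 fold change of 0.62 (adjusted p = 9.28e-05). *Angptl4* had 7.96 to 14.8 CPM and 0.88 (adjusted p = 0.0226), and *Sbspon* 7.50 to 12.5 CPM and 0.96 (adjusted p = 0.0379). For these 3 genes all 6 F2/Metestrus values lay below all males. *Lcn2* had 1.87 to 4.35 CPM and 1.82 (adjusted p = 0.0454), and 3 of 6 F2/Metestrus values lay below the lowest male. *Mpo* had 1.16 (adjusted p = 0.0899) and *Hspb2* 0.86 (adjusted p = 0.0621). *Gm19409* ran from 0.785 to 3.70 CPM, overlapping both other groups, with a log2 fold change of -0.28 (adjusted p = 0.631).

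Of a list of 22 neutrophil genes, all of them autosomal, *Lcn2* was called with all samples and *Mpo* without F1/Proestrus 5, both higher in males. Of 17 tested, 13 had an unadjusted p under 0.05, all 13 higher in males, against 5.13% of all autosomal genes tested. The filter needs its minimum count in only as many samples as the smaller group holds, so that scarce members can pass through the males alone. How many did so was not examined. The count and median of the list are therefore descriptive, and they are no test against the share of all genes. The median log2 fold change of the list was 1.55, and that of all autosomal genes tested was -0.0075. Without F1/Proestrus 5 the list had 13 such genes of 18 tested, beside 4.49% of all, and a median of 1.97, beside -0.0049 for all. DESeq2 called 3 members with all samples, *Lcn2*, *Mpo* and *Retnlg*, and limma voom 1, *Mpo*, beside 82 and 18 of all 23436 higher in males. DESeq2 called 7 when F1/Proestrus 5 was left out, the same 3 genes and *Elane*, *Ltf*, *Mmp8* and *S100a9*, beside 126 of all 23658. *Lcn2*, *Mpo* and *Retnlg* were among genes that the study had named from these samples, so that their direction is not independent evidence. The most abundant members per kilobase of exon were *S100a9* at 4.47 CPM per kilobase and *Mmp9* at 4.01.

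*S100a9*, a calcium-binding protein of the neutrophil cytosol, ran from 1.69 to 7.32 CPM in males (median 3.18) and from 0.400 to 2.19 CPM in F1/Proestrus (median 0.893). Its highest proestrus value was again that of F1/Proestrus 5, and the groups overlapped. The log2 fold change was 1.77 (standard error 0.44; adjusted p = 0.266), and 2.04 without F1/Proestrus 5 (adjusted p = 0.158). *Retnlg*, a resistin-like secreted protein, had 1.63 (adjusted p = 0.266) and 2.05 (adjusted p = 0.0613). *Elane*, neutrophil elastase, had the top value of the list at 2.33 (adjusted p = 0.350; 2.84 and 0.232 without F1/Proestrus 5), on 0 to 0.141 CPM in F1/Proestrus and 0.106 to 0.740 CPM in males. *Mmp9*, a gelatinase that other cells of the cord can make as well, differed by -0.12 (adjusted p = 0.792), and *Prtn3*, proteinase 3, by 0.39 with no overlap between the groups (adjusted p = 0.352).

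The males were ordered differently by *Lcn2* and by the other neutrophil genes. Summed over the list without *Lcn2*, the males had 58.5, 34.0, 34.6, 30.2, 31.3 and 38.8 CPM in the order of replicates 1 to 6. Male 1, the highest, had the lowest *Lcn2* but for Male 6 (5.31 CPM) and the highest *Mpo* (1.58 CPM) and *S100a9* (7.32 CPM). Male 5, the highest for *Lcn2* with 17.7 CPM, had the lowest *Mpo* of the males (0.457 CPM). F1/Proestrus had 21.2 to 33.4 CPM for the same sum, the top being F1/Proestrus 5.

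**Figure D3:**
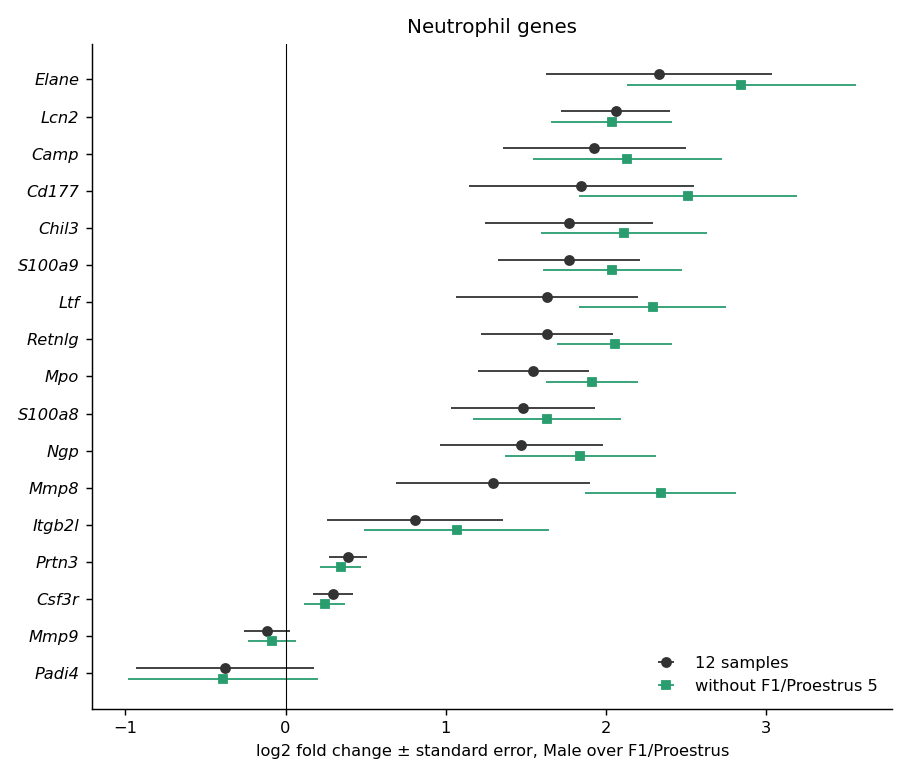
Log2 fold change of Male over F1/Proestrus (x; bars are standard errors) for the 17 neutrophil genes tested with all 12 samples (dark grey circles), and the same genes without F1/Proestrus 5 (green squares). Of the 17 values 15 lie above 0 with all samples, and *Mmp9* and *Padi4* lie below 0.

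Granule genes of this list share regulators of the C/EBP and PU.1 families in the bone marrow, where they are transcribed as the cells mature. To show control regions from the list, the 250 bases before the start of the pair with the smallest p among the 7 genes of the list whose window held no exon base of the gene are printed from RefSeq (GRCm38.p6), with matches to TTNNGCAA (C/EBP, either strand) in capitals. Both S100a9 (chr3:90695722-90695971, minus strand) and Retnlg (chr16:48872358-48872607, plus strand) hold 1 match, and neither holds GAGGAAGT, a PU.1 sequence, on either strand.
S100a9: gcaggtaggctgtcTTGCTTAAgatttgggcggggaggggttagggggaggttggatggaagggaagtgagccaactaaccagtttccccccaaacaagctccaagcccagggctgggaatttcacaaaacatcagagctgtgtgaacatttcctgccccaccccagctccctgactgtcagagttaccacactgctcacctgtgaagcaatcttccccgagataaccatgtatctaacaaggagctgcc
Retnlg: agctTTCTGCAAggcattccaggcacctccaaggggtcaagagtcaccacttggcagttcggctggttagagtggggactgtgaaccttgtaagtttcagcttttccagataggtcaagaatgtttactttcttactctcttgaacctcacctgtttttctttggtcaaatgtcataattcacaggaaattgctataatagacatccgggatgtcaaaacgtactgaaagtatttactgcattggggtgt
The matches start 236 and 246 bases before the gene start. A match was present in 3 of these 7 windows for C/EBP and in 1 for PU.1, and in 9.57% and 2.44% of 32807 windows of the same length. Of the 22 genes of the list, 21 had an entry. Such a match is a run of letters and was not tested as a binding site.

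Of a list of 27 neuropeptide genes 26 were tested and 1 was called, *Penk*. At an unadjusted p under 0.05 there were 9, all higher in males, against 5.13% of all autosomal genes tested. The median log2 fold change of the list was 0.17. Without F1/Proestrus 5 there were 8 such genes, against 4.49% of all, and the median was 0.099. DESeq2 called *Penk*, *Pnoc* and *Grp*, and limma voom *Penk* and *Grp*. The DESeq2 calls were *Penk* and *Grp* without F1/Proestrus 5. Per kilobase *Penk* (236 CPM per kilobase) and *Sst*, which encodes somatostatin (149.6 CPM per kilobase), were the most abundant. *Sst* had 97.4 to 144 CPM in males and 78.7 to 142 CPM in F1/Proestrus, a log2 fold change of 0.20 (adjusted p = 0.546), and 0.14 without F1/Proestrus 5 (adjusted p = 0.758).

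*Grp*, the gastrin-releasing peptide of itch circuits, ran from 8.72 to 18.1 CPM in males (median 12.7) and from 5.39 to 10.5 CPM in F1/Proestrus (median 6.74). Its log2 fold change was 0.82 (standard error 0.16; adjusted p = 0.0943), and 0.71 without F1/Proestrus 5 (adjusted p = 0.0961). *Pnoc*, the nociceptin precursor, and *Pdyn*, the dynorphin precursor, had 0.28 and 0.29 (adjusted p = 0.284 and 0.360), and 0.25 and 0.22 without F1/Proestrus 5 (adjusted p = 0.346 and 0.474). *Calca*, which encodes CGRP and is abundant in nociceptors, had 162 CPM in F1/Proestrus 5 and 6.41 to 31.0 CPM in the other proestrus females. Its log2 fold change moved from -1.20 (adjusted p = 0.527) to -0.19 (adjusted p = 0.914) without that sample.

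Receptors for these peptides had 0 of 21 called in edgeR's test, and their median log2 fold change was 0.0093. At an unadjusted p under 0.05 there was 1 in each direction, beside 5.13% higher and 5.21% lower over all autosomal genes tested. DESeq2 called 1, *Npy2r*, and limma voom 0. Leaving out F1/Proestrus 5, the median was -0.0049, and edgeR's test called 0. It gave 1 gene lower at an unadjusted p under 0.05, beside 4.21% of all, and DESeq2 again called *Npy2r*. *Npy2r*, the Y2 receptor for neuropeptide Y, had 4.81 to 6.54 CPM in males and 6.01 to 12.7 CPM in F1/Proestrus, the highest in F1/Proestrus 5. Its log2 fold change was -0.70 (standard error 0.15; adjusted p = 0.151), and -0.60 without that sample (adjusted p = 0.181). *Nmur2*, a neuromedin U receptor, had 0.23 (adjusted p = 0.438), and the abundant *Ntsr2* and *Adcyap1r1* had 0.038 and -0.015.

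Of 23 microglia genes tested 22 had a log2 fold change above 0 and 15 an unadjusted p under 0.05. All 15 were higher in males, against 5.13% of all autosomal genes tested, but edgeR's test called 0 of the list. The values of the 23 genes ran from -0.032 to 0.34 with a median of 0.18. Without F1/Proestrus 5 the median was 0.20 and 14 genes had an unadjusted p under 0.05, against 4.49% of all that were higher in males. DESeq2 called 6 of them (5 without F1/Proestrus 5, where edgeR's test again called 0) and limma voom 1, *C1qc*. The largest values included those of complement C1q, the recognition subunit of the classical pathway. *C1qc* had 40.8 to 59.0 CPM in males (median 48.6) and 33.5 to 46.8 CPM in F1/Proestrus (median 37.9), a difference of 0.34 on the log2 scale (standard error 0.059; adjusted p = 0.0625), and 0.31 without F1/Proestrus 5 (adjusted p = 0.0961).

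*C1qa* had 0.32 (adjusted p = 0.0920) and *C1qb*, the most abundant of the list at 67.0 CPM per kilobase, had 0.34 (adjusted p = 0.148). *Ctss*, the lysosomal protease cathepsin S, was the next most abundant and had 0.25 (adjusted p = 0.348). *Csf1r*, the receptor on which microglia depend for survival, was the single member whose groups did not overlap, at 139.5 to 154 CPM in males and 119.0 to 139 CPM in F1/Proestrus, with a log2 fold change of 0.20 (adjusted p = 0.231; 0.22 and 0.168 without F1/Proestrus 5). Over all autosomal genes tested the groups were fully separated for 44 genes with males above (0.188%) and for 34 with males below (0.145%).

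All 28 interferon-inducible genes tested had a log2 fold change below 0, from -0.90 to -0.048 with a median of -0.25, and 10 had an unadjusted p under 0.05 against 5.21% of all autosomal genes in that direction. Of the 28, 0 were called by edgeR's test, by DESeq2 or by limma voom. Without F1/Proestrus 5, 27 of the 28 values were below 0, and 7 had an unadjusted p under 0.05 against 4.21% of all. The median was then -0.22, and edgeR's test and DESeq2 called 0. *Mndal*, an interferon-inducible DNA sensor family member, had 0.239 to 0.477 CPM in males and 0.338 to 0.921 CPM in F1/Proestrus (log2 fold change -0.90, standard error 0.25, adjusted p = 0.330), and the value was -0.67 without F1/Proestrus 5 (adjusted p = 0.437). *Eif2ak2*, the kinase PKR, had -0.41 (adjusted p = 0.341), and the abundant *Ifit3* had -0.31. Summed over the list, males had 163 to 199 CPM, F1/Proestrus 174 to 237 CPM and F2/Metestrus 217 to 433 CPM, so that males and F1/Proestrus overlapped.

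Among glucocorticoid-induced genes, 2 of 23 tested were called with all samples, *Angptl4* and *Lcn2*, and 1, *Angptl4*, without F1/Proestrus 5. A further 4 had an unadjusted p under 0.05 and were higher in males, beside 5.13% of all autosomal genes tested. The median log2 fold change of the list was 0.075 (0.067 without F1/Proestrus 5). In the fit of 11 samples 7 genes were higher and 1 lower at an unadjusted p under 0.05, beside 4.49% and 4.21% of all. The most abundant per kilobase, the metallothioneins *Mt1* and *Mt2*, had 0.27 and 0.34 (adjusted p = 0.356 and 0.303). DESeq2 added *Sult1a1* and *Cdkn1a* to the pair, with and without F1/Proestrus 5, and limma voom called *Angptl4* alone. Immediate early genes, which neuronal activity induces, had 0 of 24 called in edgeR's test and 2 with an unadjusted p under 0.05, *Jund* at 0.22 and *Egr2* at 0.47, and a median of 0.0055, and DESeq2 and limma voom called 0. The shares over all autosomal genes tested were 5.13% higher and 5.21% lower, and 4.49% and 4.21% without F1/Proestrus 5. *Egr1*, one of the most abundant, had 0.0020 (adjusted p = 0.995). The median was -0.027 without F1/Proestrus 5, edgeR's test called 0, with 2 higher and 1 lower at an unadjusted p under 0.05, and DESeq2 called *Egr2* there, whose log2 fold change in edgeR's test was then 0.65 (adjusted p = 0.158). *Egr2* is also a member of the list of Schwann cell markers described below.

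Cytokine receptor and signaling genes of leukocytes had 0 of 25 called in edgeR's test, with 8 higher and 2 lower in males at an unadjusted p under 0.05 and a median of 0.044. Over all autosomal genes tested the shares at that p were 5.13% and 5.21%, and 4.49% and 4.21% without F1/Proestrus 5. Among the 8 were *Csf2rb*, *Csf2rb2*, *Jak3*, *Il16*, *Cntf* and *Gpr183*. The study had named these from the same samples, so that their direction is not independent evidence. DESeq2 called 1, *Gpr183*, and limma voom 0. In the fits of 11 samples DESeq2 called 4, *Gpr183*, *Csf2rb*, *Il16* and *Cntf*, while edgeR's test called 0, with 8 higher and 1 lower at an unadjusted p under 0.05 and a median of 0.048. *Gpr183*, an oxysterol receptor that guides leukocytes, had 1.33 to 2.27 CPM in males and 1.01 to 1.17 CPM in F1/Proestrus with no overlap (log2 fold change 0.63, standard error 0.13, adjusted p = 0.142; 0.62 and 0.188 without F1/Proestrus 5). *Cntf*, a ciliary neurotrophic factor that Schwann cells make, had 0.75 (adjusted p = 0.224), and the abundant *Jak1* had -0.16. In the leukotriene and prostaglandin list 0 of 21 were called, with 3 higher and 1 lower at an unadjusted p under 0.05 and a median of 0.068. The 3 were *Dpep1*, *Cyp4f14* and *Cyp4f15*, which the study had also named from these samples, so that the same limit holds. The counts of this list stand beside the same shares of all autosomal genes. DESeq2 called 2, *Dpep1* and *Cyp4f14*, and limma voom 0. In the fit of 11 samples the median was 0.043, edgeR's test called 0, with 4 higher and 1 lower at an unadjusted p under 0.05, and DESeq2 called 1, *Dpep1*. *Dpep1*, which converts leukotriene D4, had 2.02 to 3.59 CPM in males and 0.985 to 1.81 CPM in F1/Proestrus with no overlap. Males were higher by 0.97 on the log2 scale (standard error 0.19; adjusted p = 0.113), and by 0.89 without F1/Proestrus 5 (adjusted p = 0.175). *Cyp4f14*, a fatty acid hydroxylase, had 0.29 (adjusted p = 0.286), and the abundant *Ptgds* and *Lta4h* had 0.097 and 0.0046.

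Steroid receptors and enzymes had 0 of 17 called in edgeR's test and 2 in each direction at an unadjusted p under 0.05, with a median of -0.019. Over all autosomal genes tested the shares at that p were 5.13% higher and 5.21% lower, and 4.49% and 4.21% without F1/Proestrus 5. DESeq2 called 1, *Srd5a2*, and limma voom 0. These counts of edgeR's test and DESeq2 were the same without F1/Proestrus 5, and the median was -0.016. *Srd5a2*, a 5-alpha reductase, ran from 0.775 to 2.67 CPM in males and from 0.261 to 1.10 CPM in F1/Proestrus (log2 fold change 1.17, standard error 0.32, adjusted p = 0.305; 1.28 and 0.263 without F1/Proestrus 5). *Akr1c14*, a 3-alpha hydroxysteroid dehydrogenase, went the other way without overlap, at 1.21 to 1.72 CPM in males and 1.73 to 2.52 CPM in F1/Proestrus (log2 fold change -0.44, standard error 0.13, adjusted p = 0.332; -0.45 and 0.369 without F1/Proestrus 5). The abundant *Tspo* and *Nr3c1* had 0.27 and -0.058. Autosomal subunits of GABA-A and glycine receptors, which carry fast inhibition, had 0 of 14 called in edgeR's test. At an unadjusted p under 0.05 there was 1 lower in males, *Gabrb2* at -0.14, beside the same shares. The median was -0.047, and DESeq2 and limma voom called 0. The counts of edgeR's test and DESeq2 did not change in the fits of 11 samples, and the median was -0.044. *Glrb* and *Gabra5*, the most abundant, had -0.11 and 0.044.

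A further pair of lists held 37 autosomal genes that the study had named as higher in males and 15 as higher in females. They are part of the genes it called between the males and both female groups combined, these same samples included, so that their direction here is not independent evidence. Several also belong to other lists described here, among them *Penk*, *Grp*, *Csf1r*, *C1qb*, *Srd5a2*, *Ncmap*, *Prx*, *Npy2r*, *Mndal* and *Eif2ak2*. The same limit holds for the counts of those lists. All 37 had an unadjusted p under 0.05, 4 were called (21 by DESeq2, 7 by limma voom), and the median log2 fold change was 0.57. All 15 also had an unadjusted p under 0.05 with lower values in males, 0 were called in edgeR's test (3 by DESeq2, 0 by limma voom), and the median was -0.36. Of these 15, 8 had their highest value of the 18 samples in F1/Proestrus 5. Without it the 15 still had an unadjusted p under 0.05 and their median was -0.29, and of the 37 genes 5 were called (25 by DESeq2) with a median of 0.64. Of the 15 genes edgeR's test then called 0 and DESeq2 3.

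**Figure D4:**
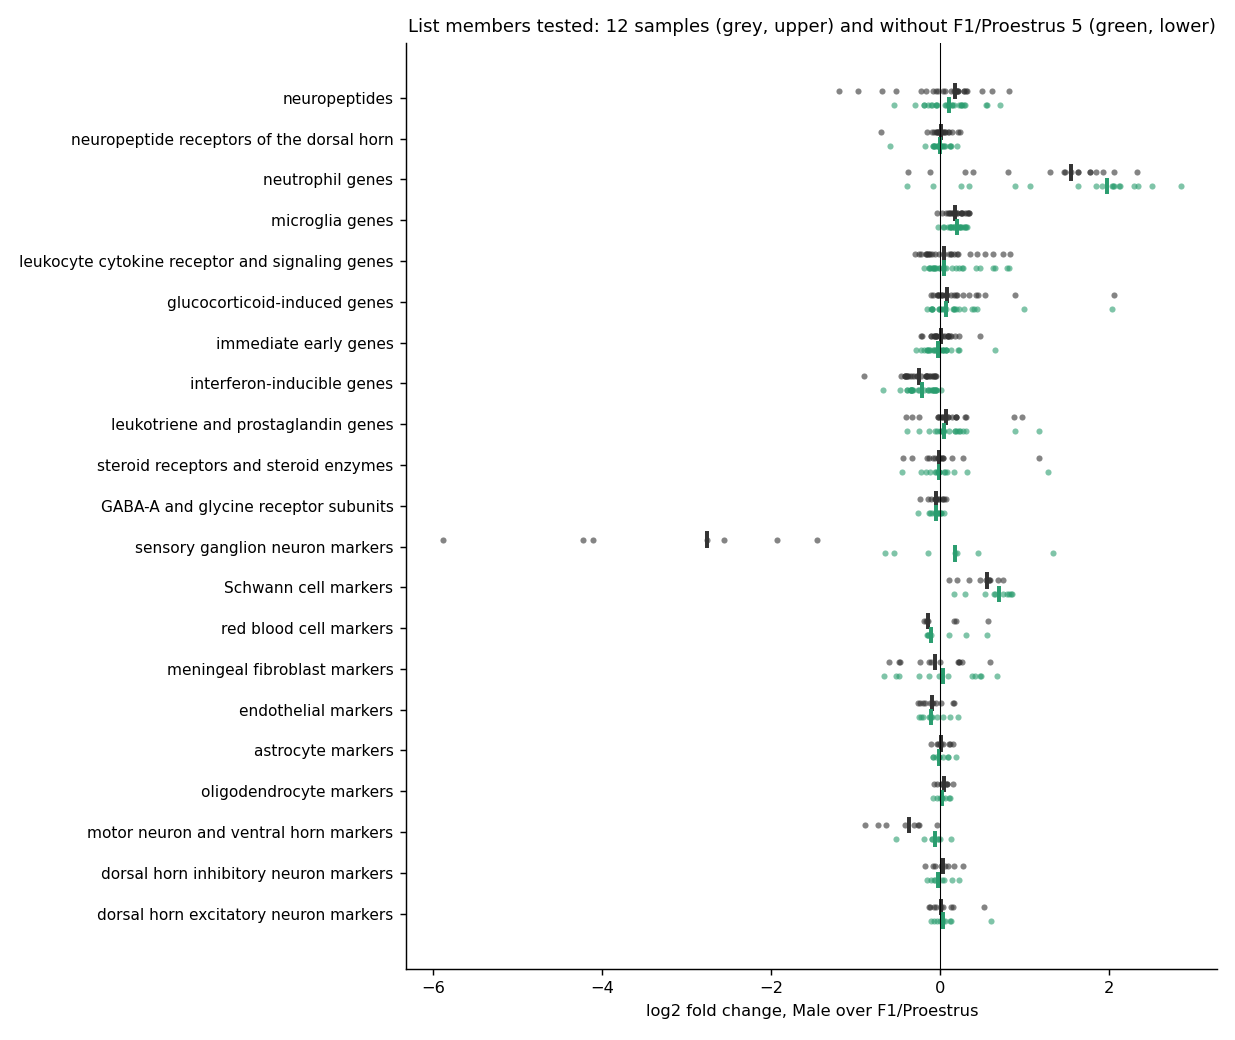
Log2 fold change of Male over F1/Proestrus (x) for the tested members of each list (y), 1 point per gene, with all 12 samples in dark grey and without F1/Proestrus 5 in green; vertical bars are medians. Neutrophil genes lie furthest to the right, with medians of 1.55 and 1.97, interferon-inducible genes lie left of 0 with all samples, and sensory ganglion markers move from a median of -2.76 to 0.18. Scarce neutrophil genes can pass the filter on low counts through the males alone, so that the place of this list is descriptive.

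Marker lists of other tissues and cell types were set beside these results. The 7 sensory ganglion markers that could be tested had log2 fold changes of -5.88 to -1.46 with all samples and a median of 0.18 without F1/Proestrus 5. *Scn11a*, a sodium channel of nociceptors, had 57.2 CPM in F1/Proestrus 5 and at most 0.223 CPM in any other of the 18 samples. Its log2 fold change moved from -5.88 (adjusted p = 0.374) to -0.65 (adjusted p = 0.655), and that of *Avil*, a sensory neuron actin-binding protein, from -4.11 to -0.55. Leaving out F1/Proestrus 5 moved the log2 fold change of 42 autosomal genes by more than 1, all upward, and 40 of these had their highest value of the 18 samples there. Leaving out any other of the 12 samples moved 0 to 7 genes as far.

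Schwann cell markers, which stand for peripheral nerve and roots, had 10 of 10 log2 fold changes above 0 and a median of 0.55. Of these 6 had an unadjusted p under 0.05, against 5.13% of all autosomal genes tested that were higher in males. Without F1/Proestrus 5 the median was 0.70, 8 had an unadjusted p under 0.05, and DESeq2 called 5, *Ncmap*, *Egr2*, *Prx*, *Cldn19* and *Dhh*, against 1 with all samples. They summed to 981 to 2310 CPM in males and 643 to 1314 CPM in F1/Proestrus, or 643 to 891 CPM without F1/Proestrus 5. The highest sum was that of Male 5, and *Ncmap*, a gene of peripheral myelin, had a log2 fold change of 0.57 (adjusted p = 0.130). Their part in the calls of *Penk*, *Angptl4*, *Lcn2* and *Sbspon* was not tested. Male 5 also held the highest *Penk*, *Lcn2*, *Sbspon* and *Hspb2* of the males.

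Motor neuron and ventral horn markers, taken as a sign of ventral tissue, summed to 273 to 513 CPM in males and 302 to 662 CPM in F1/Proestrus. The highest sum was that of F1/Proestrus 5, where 2 of the 8 markers had their highest value of the 18 samples. Because that sample also carried sensory ganglion transcripts, its sum is not read as ventral tissue, and the source was not tested. The median log2 fold change of the list was -0.37 with F1/Proestrus 5 and -0.061 without it. With all samples the other lists lay closer to 0. Red blood cell markers had a median of -0.15, endothelial markers -0.097, meningeal fibroblast markers -0.059, astrocyte markers 0.0098 and oligodendrocyte markers 0.047. Inhibitory and excitatory dorsal horn neuron markers had 0.031 and 0.0081. Without F1/Proestrus 5 the medians of these lists, in the same order, were -0.11, -0.11, 0.037, -0.0078, 0.026, -0.023 and 0.033. With all samples the marker lists held 0 genes called by edgeR's test or limma voom and 1 called by DESeq2, *Ncmap*, and without F1/Proestrus 5 edgeR's test called 0 as well, while the DESeq2 calls were the 5 Schwann cell markers. At an unadjusted p under 0.05 the counts were 3 lower for sensory ganglion, 6 higher for Schwann cell, 1 in each direction for meningeal fibroblast, 2 lower for endothelial, 2 higher for astrocyte, 1 higher for oligodendrocyte and 1 lower for inhibitory neuron markers, and 0 for the other 3 lists. Leaving out F1/Proestrus 5, the counts were 2 higher for sensory ganglion, 8 higher for Schwann cell, 3 higher and 1 lower for meningeal fibroblast, 3 lower for endothelial, 1 higher for astrocyte and 1 lower for inhibitory neuron markers, and 0 for the other lists. Over all autosomal genes tested the shares at that p were 5.13% higher and 5.21% lower, and 4.49% and 4.21% without F1/Proestrus 5.

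**Figure D5:**
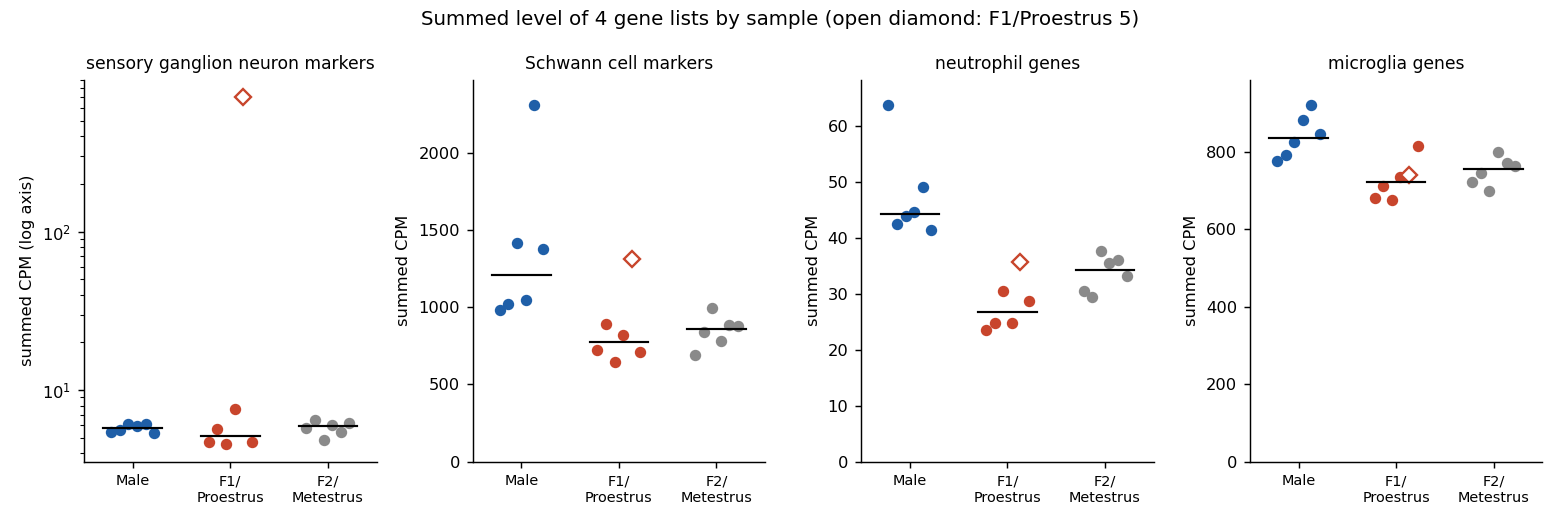
Summed CPM (y; log axis in the first panel, from 0 in the others) of 4 lists in each sample, with a black line at the group median and an open diamond for F1/Proestrus 5. Sensory ganglion markers reach 703 CPM in that sample and at most 7.62 CPM in any other, Schwann cell markers peak at 2310 CPM in Male 5, and every male lies above every F1/Proestrus sample for the neutrophil sum with *Lcn2* included.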

How the data were processed

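RNA-Seq was analyzed for the 6 Male and 6 F1/Proestrus samples, with 6 F2/Metestrus samples beside them. The authors deposited raw counts of reads on the exons of 55573 genes, not normalized. The methods state unique mapping to mm10 with Subread and counting with featureCounts; the submitters' processing notes name Subread 2.0.3. Strand use is not given in the sources used here. The methods name the TruSeq kit, the labels SMART-Seq v4 amplification with Nextera XT. Amplified reads carry no molecular identifiers, so precision from depth covers counting error only. The other deposited table, with fold changes and p-values that the authors computed with DESeq2, was not used.

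Genes were placed by GENCODE vM21 (GRCm38), which held 55480 of the gene IDs. Replicates 1 to 3 and 4 to 6 carry library numbers of separate runs of numbers in the header of the table, and this replicate set was a term in the model. Counts were filtered with filterByExpr (minimum count 10, total 15), scaled by TMM and tested with edgeR 4.0.16 in R 4.3.3 (quasi-likelihood test, Benjamini-Hochberg adjustment over all genes tested, FDR 5%). Standard errors were derived from the F statistic of the test. Log2 fold changes are Male over F1/Proestrus. The fit was repeated without F1/Proestrus 5. Alternatives were DESeq2 1.42.0, limma 3.58.1 (voom with sample quality weights), other normalization, filters, dispersions, covariates and adjustment, each replicate set alone, and each sample left out.

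Named genes are those called with all samples, list members called in either fit, and the 2 members with the smallest p and the 2 most abundant per kilobase in each list described. Some of the genes this rule names are not reported here. The members and lists were chosen with earlier results of these data known. The p-values measure the spread between the samples, which the methods call biological replicates. The replicate numbers did not pair the samples: males and proestrus females of the same number deviated from their group means with correlations, across genes, of -0.115 to 0.241.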

Additional observations from a re-analysis of the deposited data

Results flagged for a closer look

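In 42 sets of 6 samples (the 8 called genes and 6 summed lists in each group), 7 held a sample whose gap to its neighbour exceeded Dixon's 95% limit, where chance flags about 1 set in 20. F1/Proestrus 5 accounted for 4 of them, but sensory ganglion markers are what set that sample apart, and *Mpo* and *Sbspon* were included because they were called without it, so that this count cannot be read against the chance rate. Its sensory ganglion markers summed to 703 CPM, against at most 7.62 CPM in the other proestrus females. Its Schwann cell markers summed to 1314 CPM, against at most 891 CPM in the others. *Sbspon* had 13.6 CPM there, against at most 9.15 CPM, and *Mpo* 0.588 CPM, against at most 0.297 CPM. Male 1 had 63.8 CPM for the summed neutrophil genes, with the next male at 49.0 CPM, and Male 5 had 2310 CPM for the summed Schwann cell markers, with the next male at 1412 CPM. F2/Metestrus 4 had 4.35 CPM of *Lcn2*, with the next metestrus female at 2.66 CPM. What these samples hold besides dorsal horn was not tested.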

How the results depend on the processing

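Against 4 autosomal genes higher in males and 0 higher in F1/Proestrus in edgeR's test, DESeq2 called 82 and 52, limma voom 18 and 11, and edgeR without a filter on low counts 68 and 30. The fit of all 18 samples called 23 and 8. Without a term for the replicate set 2 genes were higher in males, and with a mean CPM of at least 1 there was 1 gene higher in F1/Proestrus. Replicates 1 to 3 alone gave 1 and 0 calls and replicates 4 to 6 alone 0 and 0 (615 genes higher in males at an unadjusted p under 0.05). Adjusted over autosomal genes alone, 0 genes were called in either direction. Leaving out F1/Proestrus 5, DESeq2 called 126 and 51. There edgeR without the set term called 4 genes higher in males, of which 1 was among the 4 of the main fit, and 1 higher in F1/Proestrus. The cause of these differences was not tested. The 4 called genes were all among the DESeq2 calls, with and without F1/Proestrus 5, and 3 were among those of limma voom. Leaving out each sample gave 1 to 8 genes higher in males and 0 to 3 higher in F1/Proestrus. The first count was 8 without Male 1, 2 without Male 2, Male 3 or F1/Proestrus 4, and 1 without Male 5 or F1/Proestrus 1, and the second was 3 without Male 4. With the replicate number as a block the calls were 5 and 0, and *Lcn2* had an adjusted p of 0.0576 and *Sbspon* of 0.00957 there. Over all alternatives *Penk* was called in 21 of 26, *A830012C17Rik* in 20, *Angptl4* in 14 and *Lcn2* in 9, with log2 fold changes of 0.54 to 0.68, 0.56 to 0.69, 0.80 to 1.01 and 1.62 to 2.41. Their adjusted p ranged up to 0.679, 0.679, 0.762 and 0.762, each in replicates 4 to 6 alone. *Sbspon* was called in 8 of 26 alternatives, *Hspb2* and *Gm19409* in 7 of 26 each, and *Mpo* in 7 of 25. Depth weighs most on rare transcripts such as *Mpo*, with 14 to 67 counts per proestrus female.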
